A study of Mus musculus with 11 samples.

Results

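Intercalated cells of the connecting tubule and collecting duct are the acid-base cells of the distal nephron. Type A cells secrete protons through an apical vacuolar-type H+-ATPase (V-ATPase) and return bicarbonate to the blood through the basolateral anion exchanger AE1, whereas type B and related cells secrete bicarbonate through the apical exchanger pendrin. Cytosolic carbonic anhydrase II supplies protons and bicarbonate to both processes, and the forkhead factor Foxi1 drives transcription of several of these genes.

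The genes described here are 10 members of that machinery, selected by symbol from the 28692 genes of the count tables: the transcription factor *Foxi1*, the exchanger genes *Slc4a1* (AE1) and *Slc26a4* (pendrin), the alkali-sensing receptor gene *Insrr*, the V-ATPase subunit genes *Atp6v0d2*, *Atp6v1g3*, *Atp6v1b1* and *Atp6v0a4*, the gastric H,K-ATPase alpha subunit gene *Atp4a*, and *Car2* (carbonic anhydrase II). Each symbol occurs once in the tables. The gating markers described below contain none of the 10 genes.

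The series holds 11 single-cell libraries of mouse kidney made with droplet 3′ chemistry, in which every captured transcript carries a unique molecular identifier (UMI). The 5 control libraries came from naive male C57Bl/6 mice (Ctrl, N1, N2, AN1 and AN2), 3 libraries from kidneys after unilateral ischemia-reperfusion (UIR, UIR1 and UIR2) and 3 after unilateral ureteral obstruction (UUO, UUO1 and UUO2). Surgery was performed on the left kidney of mice aged 10 weeks, as a pedicle clamp of 30 minutes at 37 °C for UIR and an irreversible ureter ligation for UUO, and kidneys were taken on day 28. Controls matched the injured mice in age, strain and sex. The comparisons ask how the intercalated cell genes stand in both fibrosis models, in which segments, and whether the models differ.

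Among 40606 kept cells, tubular segments were gated by fixed marker genes into proximal tubule (PT), loop of Henle (LOH), distal convoluted tubule (DCT), connecting tubule (CNT), principal cells (PC) and intercalated cells (IC). The IC gate held 640 cells, with 23 to 38 in each control library, 83 to 118 in each UIR library and 58 to 63 in each UUO library. UMIs were summed over the gated cells of a library into a pool and are given as CPM, the count scaled to a pool total of 1000000 UMIs. Since 3′ UMIs do not scale with transcript length and capture differs between genes, CPM values are compared between groups and segments but not between genes. In such pools, fewer cells expressing a gene and less RNA per cell cannot be told apart. Group differences are log2 fold changes from edgeR's quasi-likelihood test with TMM scaling, and a gene is called where its Benjamini-Hochberg adjusted p, over all genes tested in the segment, is under 0.05.

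The libraries held 91920461 to 110914244 UMIs (controls), 82522753 to 117043590 (UIR) and 49503312 to 60918546 (UUO). The barcodes called as cells differed in mitochondrial content, with 56.9% to 78.9% of control, 23.9% to 37.4% of UIR and 3.15% to 8.02% of UUO barcodes above the limit of 30% and left out. The retained IC cells still differed, with a median of 23.0% mitochondrial UMIs and 5356 UMIs per cell in controls, 13.5% and 10063.5 UMIs in UIR, and 10.2% and 14117 UMIs in UUO. The part of this in the group differences below was not tested, other than by repeating them under mitochondrial limits of 15% and 50%. The labels divide the controls into sets (Ctrl, N and AN) but give no set for UIR or UUO libraries, so that no comparison within a set was possible, and set and group cannot be told apart.

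The gated IC cells also held the fixed intercalated cell markers left out of the gate as shared with another gate, tubular or other. *Rhcg* (ammonia channel RhCG) reached 204 to 507 CPM in control IC pools, 249 to 285 in UIR and 211 to 327 in UUO. It was detected in 84.3% of the IC cells that set the gate and in 74.7% of those of another gate. *Tmem213* was at 2000 to 2153, 1477 to 2280 and 1283 to 1955 CPM, and *Kit* at 303 to 592, 560 to 648 and 564 to 699. *P2ry14* was higher in every injured library, at 19.9 to 117, 130 to 181 and 169 to 199 CPM. Markers of other cells were also present in IC pools. The sum of 10 PT markers was 144 to 529 CPM in controls, 116 to 181 after UIR and 18.7 to 26.2 after UUO, and that of 5 CNT markers was 472 to 4434, 1002 to 2412 and 1108 to 1893 CPM. The sum of 4 macrophage markers rose from 0 to 17.1 CPM in controls, where 2 of them were at 0 in every library, to 12.0 to 49.2 in UIR and 20.3 to 75.0 in UUO. The part of these cells' RNA in the results was not tested.

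The positions of the members are those of GRCm38. *Foxi1* (chr11:34204338-34208089) and *Slc4a1* (chr11:102348824-102366203) share chromosome 11, *Insrr* (chr3:87796951-87816101) and *Car2* (chr3:14886273-14900770) chromosome 3, and *Atp6v1b1* (chr6:83742990-83758855) and *Atp6v0a4* (chr6:38048483-38124586) chromosome 6. *Slc26a4* lies at chr12:31519827-31559969, *Atp6v0d2* at chr4:19876841-19922605, *Atp6v1g3* at chr1:138273738-138289462 and *Atp4a* at chr7:30712209-30725534. *Atp6v0a4* overlaps *D630045J12Rik* on the same strand, where reads may not tell these genes apart. On the other strand, *Atp6v0a4* overlaps *Tmem213*, itself a collecting duct gene, and *Insrr* overlaps *Pear1*. The effect of these overlaps on the counts was not tested.

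Because Foxi1 binds forkhead motifs, the 250 bases before the RefSeq start of each member were searched for TAAACA and its longer form GTAAACA on both strands (reverse complements TGTTTA and TGTTTAC, each longer match containing a shorter one). RefSeq promoters of GRCm38.p6 were at hand for 6 of 10 members. The longer motif was found in 1 of these 6, that of *Atp6v1b1*, against 3.65% of all 32851 promoters, and the shorter one in the same 1 against 13.4%. The window on the plus strand, chr6:83742767-83743016, is shown since it holds that match, TGTTTAC in capitals, at positions -98 to -92 from the RefSeq start, which directly follows the window and lies downstream of the gene start given above.
Atp6v1b1 promoter: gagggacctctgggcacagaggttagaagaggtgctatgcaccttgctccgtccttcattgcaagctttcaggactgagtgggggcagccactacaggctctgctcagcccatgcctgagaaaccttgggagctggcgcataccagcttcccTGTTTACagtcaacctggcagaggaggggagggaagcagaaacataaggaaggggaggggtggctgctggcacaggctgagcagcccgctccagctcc
The match describes the letters of this window and does not show a binding site.

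In control kidneys, 9 of the 10 genes had higher CPM in IC than in each of the other 5 segments. *Foxi1* averaged 484 CPM ± 99.2 (SD, n = 5 libraries) in IC and at most 17.5 elsewhere, and *Slc4a1* averaged 891 CPM ± 176 in IC and at most 16.2 elsewhere. *Car2* was broader, with 3096 CPM ± 247 in IC, 1536 ± 65.0 in PC and 345 ± 21.8 in PT. *Atp6v1b1* and *Atp6v0a4*, the B1 and a4 subunits, were likewise present outside IC, at 238 CPM in PC and 213 in CNT for *Atp6v1b1* against 694 in IC.

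Within libraries, IC exceeded the other segment in 46 of 50 pairs of member and segment in controls, 47 of 50 in UIR and 37 of 40 in UUO (edgeR with library as a block, adjusted p under 0.05). Of all genes, 27.3% were higher in control IC than in PT, 15.4% than in LOH, 16.4% than in DCT, 13.2% than in CNT and 19.5% than in PC. In UIR these shares were 31.5%, 21.2%, 15.9%, 14.1% and 16.5%, and in UUO, where DCT had too few cells, 24.6%, 17.8%, 7.81% and 14.3%. The other pairs in controls and UIR were all of *Atp4a*, whereas in UUO they were *Atp4a*, *Slc26a4* and *Insrr* against CNT. For *Atp4a*, IC of controls exceeded only PT and was lower than LOH (log2 difference -1.24), DCT (-1.84), CNT (-2.03) and PC (-1.05). In UIR and UUO this gene was instead higher in IC than in LOH, by 1.38 and 2.23 on the log2 scale, and in UUO also higher than in PC, by 1.45.

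**Figure D1:**
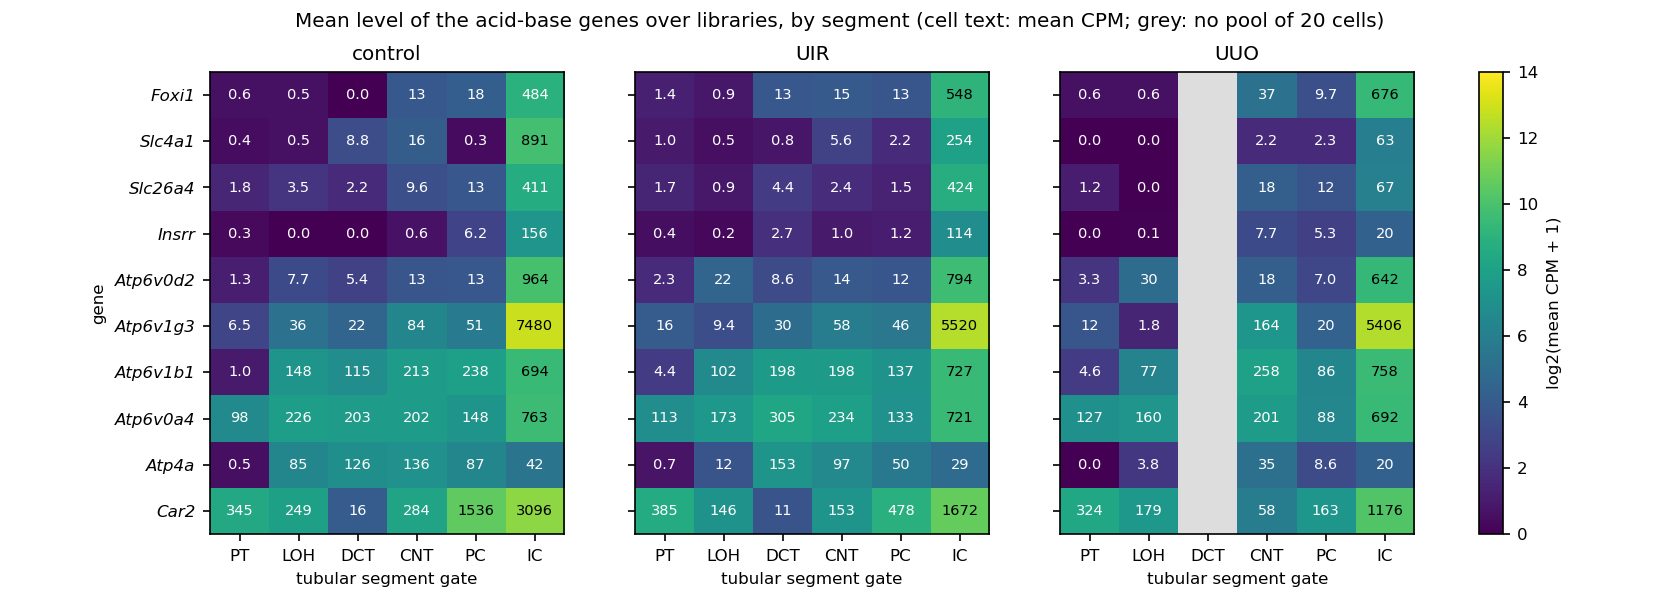
Mean CPM of the 10 genes (rows) in pools of 6 tubular segments (columns) of control, UIR and UUO libraries, with colour on a log scale and grey where no group had a pool of 20 cells. IC columns are the highest for every gene but *Atp4a*, whose control levels were lower in IC than in LOH, DCT, CNT and PC.

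After UIR, 4 of 10 members were lower in IC and 0 were higher (edgeR). Of all 8088 genes tested in IC, 7.12% were lower and 5.68% higher. The members that fell were *Slc4a1*, *Car2*, *Atp6v1g3* and *Atp6v0d2*. *Foxi1*, *Atp6v1b1*, *Atp6v0a4*, *Slc26a4*, *Insrr* and *Atp4a* did not pass the test. In UUO, 8 of 10 were lower and 0 higher, against 12% and 10.5% of all genes, the members outside the call being *Foxi1* and *Atp6v1b1*. Between the models, *Slc26a4*, *Insrr* and *Slc4a1* were lower in UUO than in UIR, 3 of 10 members against 0.903% of all genes.

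How the pools were scaled bears on these counts. Scaling by library size alone moved the median log2 fold change of all genes in IC from 0.03 to 0.28 in UIR and from 0.04 to 0.42 in UUO, and the split of higher and lower calls from 459 and 576 genes to 1121 and 316 in UIR, and from 853 and 974 to 2446 and 529 in UUO. With that scaling, *Atp6v1g3* and *Atp6v0d2* were no longer called in UIR, *Atp6v0a4* and *Atp4a* were no longer called in UUO, and *Foxi1* was called higher in UUO (log2 fold change 0.49, adjusted p = 0.0180, edgeR). The counts for members were then 2 lower in UIR and 6 lower and 1 higher in UUO. At a mitochondrial limit of 50%, 8 members were lower in UIR and 9 in UUO, against 10.5% and 16.7% of all 9170 genes then tested. These counts include *Atp6v1b1*, whose CPM in UUO lay above every control at that limit, as given below.

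**Figure D2:**
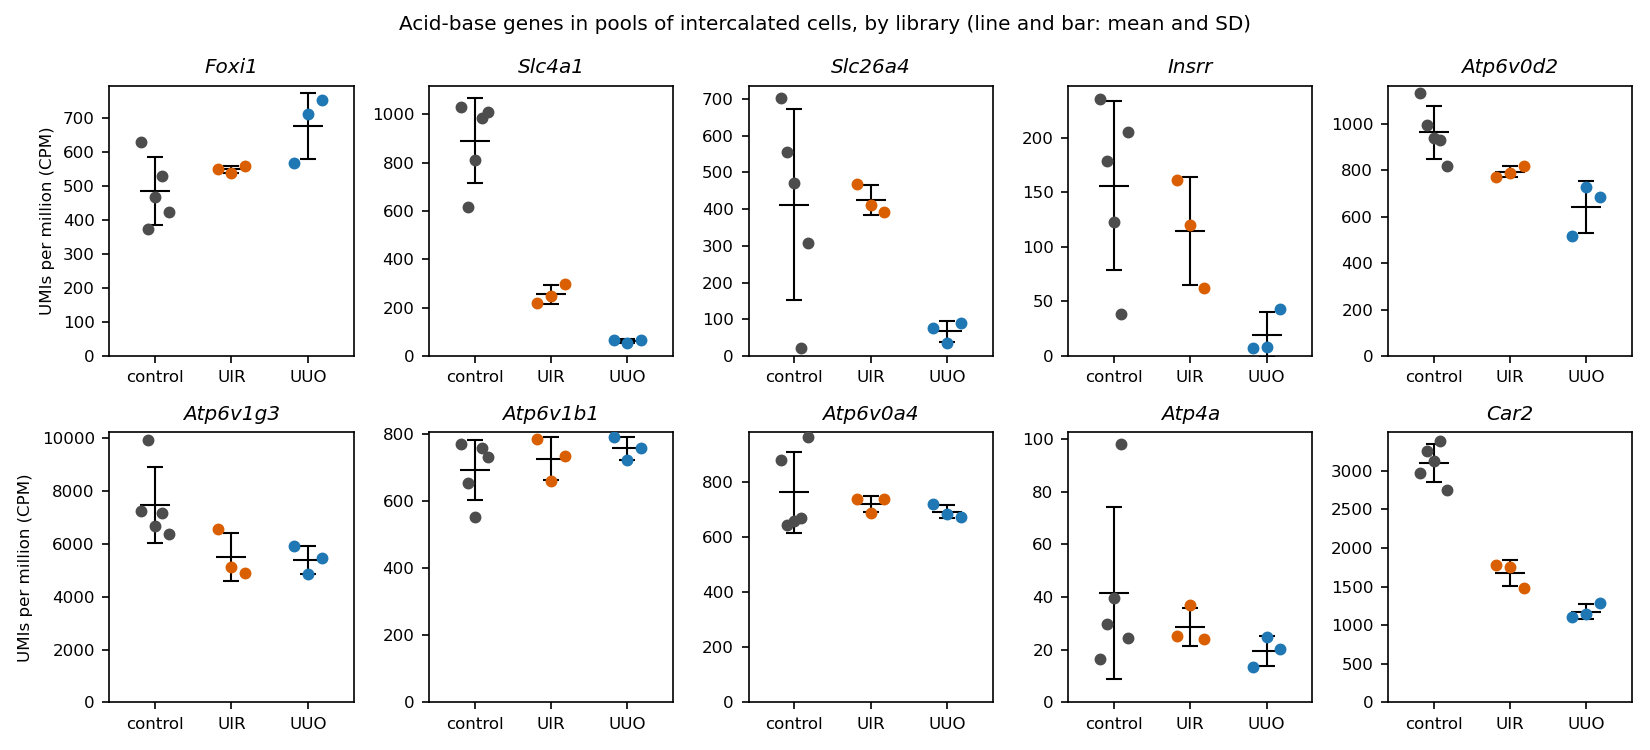
CPM of each of the 10 genes in IC pools, 1 point per library, for control (n = 5), UIR (n = 3) and UUO (n = 3), with bars for the mean and SD. *Slc4a1* and *Car2* of both models lie below all controls, *Slc26a4* and *Insrr* fall in UUO, and *Foxi1* and *Atp6v1b1* of both models overlap the controls.

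*Slc4a1*, which encodes the AE1 exchanger of type A cells, showed the largest decrease among the members in IC of both models. Its level there was 1030, 616, 813, 986 and 1009 CPM in Ctrl, N1, N2, AN1 and AN2, 217, 248 and 298 in UIR, UIR1 and UIR2, and 67.5, 54.2 and 67.6 in UUO, UUO1 and UUO2. No library of 1 group overlapped those of another. The log2 fold change was -2.07 ± 0.18 (SE, adjusted p = 7.70e-09, edgeR) in UIR, 4.20-fold lower, and -4.21 ± 0.21 (adjusted p = 6.16e-14) in UUO, 18.5-fold lower. UUO was also lower than UIR, by -2.14 ± 0.21 on the log2 scale (adjusted p = 1.36e-06, edgeR).

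The *Slc4a1* difference depended on the mitochondrial limit. At 15%, 5 to 13 IC cells remained per control library, 42 in all, and *Slc4a1* was at 0 in all 5 control pools, while the UIR pools held 92.9, 80.6 and 145 CPM and the UUO pools 79.8, 61.5 and 54.2. The control contrasts of IC could not be fitted with so few cells, and UUO against UIR was -0.78 (adjusted p = 0.218, edgeR). Only 1 of those 42 control cells carried 2 or more type A markers, against 48 of 144 at the limit of 30%. At 50%, with 55 to 89 control IC cells per library, *Slc4a1* was again lower, by -1.54 in UIR and -3.59 in UUO on the log2 scale.

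*Car2* followed the same order of groups with smaller steps. IC pools held 2971, 3260, 3121, 3379 and 2749 CPM in the 5 controls, 1784, 1749 and 1482 in UIR, and 1102, 1143 and 1284 in UUO. All 3 groups were separate from each other. The log2 fold change was -1.14 ± 0.16 (adjusted p = 1.08e-05, edgeR) in UIR, 2.20-fold lower, and -1.78 ± 0.16 (adjusted p = 4.39e-09) in UUO, 3.42-fold lower, and the step between the models was not called (-0.64, adjusted p = 0.0542).

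*Slc26a4*, the pendrin gene, separated the models. Its level was 701, 557, 470, 21.8 and 307 CPM in Ctrl, N1, N2, AN1 and AN2, 470, 411 and 393 in UIR, and 75.0, 35.5 and 90.5 in UUO. AN1 stood below all UUO libraries, whereas the other 4 controls and all UIR libraries stood above them. In UUO the gene was lower than in controls by -3.03 ± 0.42 on the log2 scale (adjusted p = 3.58e-06, edgeR), 8.14-fold lower, and lower than in UIR by -2.80 ± 0.43 (adjusted p = 0.000451). The UIR difference from controls was -0.23 ± 0.35 (adjusted p = 0.757). At a mitochondrial limit of 50% AN1 held 1012 CPM, within the control range of 662 to 1028, and *Slc26a4* was called lower in UIR too, by -0.95 (adjusted p = 0.010), and by -4.03 in UUO.

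*Insrr*, whose receptor senses extracellular alkali, moved with *Slc26a4*. Its levels were 235, 179, 123, 38.1 and 205 CPM in the 5 controls, 161, 119 and 62.2 in UIR, and 7.5, 7.99 and 43.1 in UUO. As for *Slc26a4*, the overlap of UUO with the controls came through AN1, at 38.1 CPM. *Insrr* was lower in UUO than in controls by -3.33 ± 0.42 (adjusted p = 9.75e-07, edgeR), 10.1-fold, and lower than in UIR by -2.58 ± 0.42 (adjusted p = 0.000946). In UIR it did not pass the test at the limit of 30% (-0.75, adjusted p = 0.155) and was called at 50% (-1.07).

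Of the 3 fixed markers of type B and related cells, all used in the gate, *Hmx2* was lower in UUO alongside *Slc26a4* and *Insrr*. It was at 256 to 796 CPM in control IC pools, 258 to 455 in UIR and 31.1 to 160 in UUO, with log2 fold changes of -0.87 (adjusted p = 0.0660, edgeR) in UIR, -2.96 (adjusted p = 3.78e-07) in UUO and -2.09 (adjusted p = 0.00137) for UUO against UIR. *Oxgr1* was lower in both models (-0.75 and -1.0), whereas *Slc4a9* was not called (0.06 and -0.42). The part of a changed mix of intercalated cell types in the *Slc26a4* and *Insrr* differences was not tested beyond the division by type A markers given below.

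The V-ATPase subunits changed less. *Atp6v1g3*, the kidney G3 subunit, was at 6362 to 9953 CPM in controls (median 7172), at 6556, 5116 and 4887 in UIR and at 5908, 4857 and 5453 in UUO. Every UUO library lay below the controls, whereas the library UIR fell within their range. The log2 fold changes were -0.69 ± 0.17 (adjusted p = 0.00685, edgeR) in UIR and -0.84 ± 0.17 (adjusted p = 0.000569) in UUO. *Atp6v0d2*, the d2 subunit, was at 819 to 1133 CPM in controls, at 771, 790 and 819 in UIR and at 516, 727 and 684 in UUO, with log2 fold changes of -0.53 ± 0.15 (adjusted p = 0.0185) and -0.96 ± 0.15 (adjusted p = 2.64e-05). Without the library UIR2, neither subunit was called in UIR, which left 2 members called, *Slc4a1* and *Car2*, and without the library UIR *Atp6v0d2* was not called.

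*Atp6v0a4*, the a4 subunit, was called in UUO only under the main settings (-0.53 ± 0.16, adjusted p = 0.0142, edgeR). The groups overlapped there, with controls at 646 to 963 CPM and UUO at 674 to 720. This call was lost without UUO1 or without UUO2. At a mitochondrial limit of 50%, *Atp6v0a4* was called lower in UIR (-0.47, adjusted p = 0.00213, edgeR) and UUO (-0.77, adjusted p = 3.83e-06). *Atp6v1b1*, the B1 subunit of the promoter shown above, stood at 554 to 771 CPM in controls, 659 to 787 after UIR and 724 to 793 after UUO. It was not called under the main settings (-0.19 and -0.25). At a mitochondrial limit of 50% it was called lower in UIR (-0.31, adjusted p = 0.0459, edgeR) and UUO (-0.36, adjusted p = 0.0143). These calls follow TMM scaling and did not show in CPM. At that limit every UUO library (758 to 793 CPM) lay above every control (604 to 741), and UIR (621 to 781) overlapped the controls. *Foxi1* was at 629, 373, 466, 529 and 424 CPM in controls, 550, 536 and 558 in UIR and 567, 710 and 752 in UUO, and was not called in either model (-0.08 and 0.10, adjusted p = 0.824 and 0.732), apart from the call under library-size scaling. Under the main settings, the ranges of *Foxi1* and *Atp6v1b1* overlapped between all groups except *Foxi1* between UIR and UUO. At 50%, *Foxi1* was again not called (-0.09 and 0.12). At 15%, control pools held 5 to 13 cells and the control contrasts could not be fitted. Besides *Slc4a1*, every injured library there lay above every control for *Foxi1* (552 to 735 against 188 to 504 CPM), *Atp6v1b1* (690 to 830 against 246 to 611) and *Atp6v0a4* (620 to 728 against 125 to 498). Control pools held only 3 to 19, 3 to 38 and 2 to 31 UMIs of these genes. The reverse held for *Car2* (1061 to 1598 against 4202 to 7592), *Atp6v1g3* (5204 to 6741 against 10726 to 16674) and *Atp6v0d2* (503 to 829 against 1168 to 1702). The share of all genes without overlap was not computed.

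*Atp4a* was low in IC throughout, at 16.3, 29.8, 39.6, 98.1 and 24.4 CPM in controls, 25.2, 37.1 and 24.0 in UIR, and 13.5, 24.9 and 20.3 in UUO. At the limit of 30%, its call in UUO (-1.19 ± 0.40, adjusted p = 0.0316, edgeR) rested on AN1, the high control. Without AN1 the log2 fold change was -0.69 (adjusted p = 0.193). The call was also lost without N2, UUO or UUO2. At 50%, AN1 held 52.1 CPM, the other controls 25.9 to 43.8 and UUO 13.2 to 26.7, which overlapped. *Atp4a* was then called lower in UUO than in controls (-1.34, adjusted p = 0.000189, edgeR) and than in UIR (-1.03, adjusted p = 0.0273).

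By the share of IC cells with a UMI at equal depth, pooled over libraries, *Slc4a1*, *Slc26a4*, *Insrr* and *Car2* were highest in controls and lowest in UUO. After thinning each IC cell to 2000 UMIs, which left out 34 control, 53 UIR and 16 UUO cells, *Slc4a1* was detected in 40% of the cells in controls, 22.4% in UIR and 13.4% in UUO and *Car2* in 99.1%, 84.0% and 74.4%. *Slc26a4* was detected in 22.7%, 16.7% and 4.88%, and *Insrr* in 21.8%, 8.37% and 1.22%. *Foxi1* was detected in 52.7%, 54.4% and 64.0%, and *Atp6v1g3* in 100%, 99.2% and 100%. By library, *Car2* shares of the 3 groups did not overlap, and those of *Slc4a1* were 27.8% to 50% in controls, 16.1% to 27.7% after UIR and 8.47% to 20.4% after UUO. Control AN1 was at 6.67% for both *Slc26a4* and *Insrr*, below every UIR library (11.6% to 19.4% and 7.25% to 8.91%) and, for *Slc26a4*, below UUO2 at 7.84%. Controls N2 (15.8%) and AN2 (18.8%) lay within the UIR range for *Slc26a4*. Without thinning, where UIR and UUO cells were deeper, *Slc4a1* was detected in 34.0%, 35.8% and 34.4% of control, UIR and UUO cells, *Car2* in 97.2%, 94.0% and 92.8%, *Slc26a4* in 28.5%, 18.7% and 11.1%, and *Insrr* in 34.7%, 16.5% and 6.11%. For *Foxi1* the shares without thinning were 66.7%, 79.4% and 88.3%. In endothelial cells, which lack these exchangers, *Slc4a1* and *Slc26a4* were found in 0.362% and 0.543% of 3866 unthinned cells (median 4588 UMIs, against 11253.5 in IC cells). The part of free RNA in these shares was not tested.

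IC cells were next divided by the fixed type A markers *Kit*, *Aqp6* and *Dmrt2*, none of them a member, into cells with 2 or 3 of them detected and cells with 0 or 1. *Aqp6* and *Dmrt2* are also among the gating markers, so that the shares describe cells which these markers helped to admit. The division is a range and not a cell type, and depends on depth, since cells with 2 or 3 markers had a median of 16495.5 UMIs in controls and the others 2752.5. The markers themselves differed between groups, but not alike. *Dmrt2* was at 114 to 163 CPM in control, 258 to 388 in UIR and 461 to 567 in UUO IC pools. *Aqp6* did not rise, at 427 to 1501, 560 to 704 and 402 to 624 CPM, and *Kit* is given above. Cells with 2 or 3 markers were 28.6%, 20.8%, 33.3%, 30.4% and 47.4% of IC cells in the controls (32.1% ± 9.71, SD, n = 5), 64.4%, 52.2% and 53.0% in UIR (56.5% ± 6.83, n = 3) and 88.1%, 90.5% and 84.5% in UUO (87.7% ± 3.02, n = 3). All groups were separate (two-sided exact permutation test, p = 0.0357 against controls for either model, the smallest possible, and p = 0.1 between the models, likewise the smallest possible). Among IC cells of at least 5000 UMIs, the shares were 59.7% ± 14.1 in controls (n = 5), 76.5% ± 4.31 in UIR and 94.3% ± 0.469 in UUO (n = 3 each), with exact permutation p of 0.107 for UIR and 0.0357 for UUO.

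**Figure D3:**
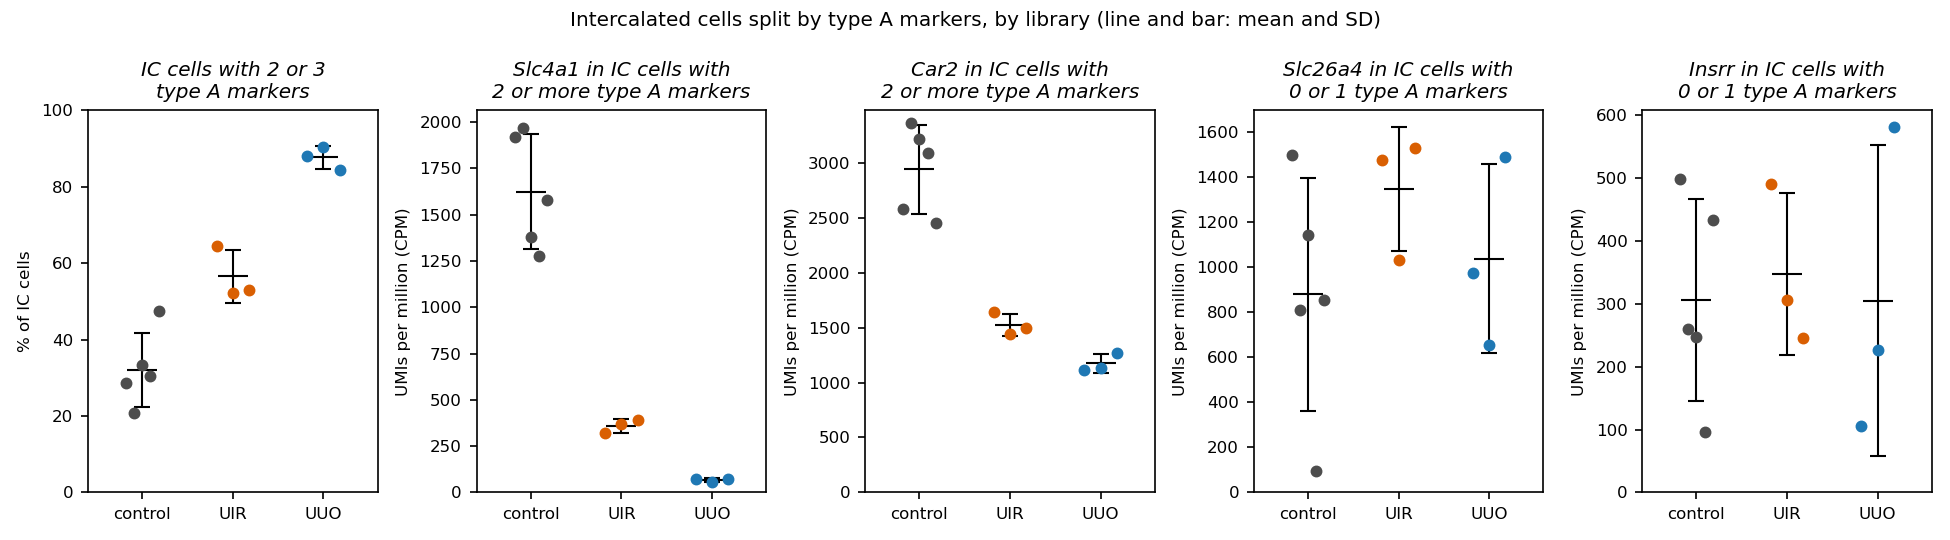
Share of IC cells with 2 or 3 of the type A markers *Kit*, *Aqp6* and *Dmrt2*, CPM of *Slc4a1* and *Car2* in those cells, and CPM of *Slc26a4* and *Insrr* in the remaining IC cells, 1 point per library with the mean and SD by group. *Slc4a1* was lower in UIR and UUO among cells with these markers, whereas *Slc26a4* of the remaining cells overlapped between the groups.

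Among cells with 2 or 3 type A markers, the *Slc4a1* difference remained. It was 1918, 1968, 1379, 1279 and 1577 CPM in controls, 318, 367 and 391 in UIR and 72.6, 56.2 and 71.9 in UUO, a log2 fold change of -2.39 in UIR (adjusted p = 1.51e-11, edgeR) and of -4.90 in UUO (adjusted p = 4.94e-18). *Car2* was lower as well, by -1.17 and -1.62. Of all 7907 genes tested in these cells, 4.62% were lower in UIR and 7.66% in UUO. *Atp6v1g3* was not called there in either model (-0.42 and -0.29). *Insrr* (-3.51), *Atp6v0d2* (-0.72), *Atp6v0a4* (-0.68) and *Atp4a* (-1.42) were lower in UUO. *Insrr* rested on few UMIs, with 1, 0, 5, 3 and 20 in the controls and 0, 0 and 10 in UUO, and UUO2 (8.99 CPM) lay above Ctrl and N1. *Atp4a* was at 127 CPM in AN1 and 15.2 to 59.6 in the other controls, which overlapped UUO (12.9 to 24.9), as did *Atp6v0d2*. The control pools behind these values held 5 to 18 cells. The cells' median mitochondrial share was 25.8% in controls, 14.8% in UIR and 10.4% in UUO.

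In cells with 0 or 1 type A markers, *Slc26a4* did not differ by the test. Its level was 1499, 810, 1146, 95.3 and 853 CPM in controls, 1477, 1031 and 1533 in UIR and 974, 656 and 1489 in UUO, with log2 fold changes of 0.42 and 0.03 and overlapping groups. *Insrr* was likewise not called (-0.05 and -0.20). A control library held 16 to 25 of these cells, a UIR library 39 to 55 and a UUO library only 6 to 9. The SE in UUO was 0.39 for *Slc26a4* and 0.43 for *Insrr*, and differences well above 1 SE could be missed. *Atp6v0d2*, at -0.47 with an SE of 0.21 in UUO, was not called in these cells (adjusted p = 0.161, edgeR). *Car2* was lower in them, by -0.89 (adjusted p = 0.0130, edgeR) and -1.59 (adjusted p = 8.79e-05), and in UUO *Atp6v1g3* was lower by -0.83 (adjusted p = 0.0131). Over all 2748 genes tested, 3.17% were lower in UIR and 7.53% in UUO.

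The balance of the exchangers, the log2 ratio of *Slc26a4* to *Slc4a1* UMIs in the same IC pool, was -0.55, -0.15, -0.79, -5.33 and -1.71 in controls, 1.11, 0.73 and 0.40 in UIR and 0.15, -0.60 and 0.42 in UUO. Every UIR library lay above every control, by a mean of 2.45 (exact permutation test, two-sided, p = 0.0357), whereas UUO overlapped the controls (1.69, exact permutation p = 0.107). The mean differences depended on AN1, without which they were 1.54 in UIR and 0.79 in UUO. That of UIR also depended on the mitochondrial limit, being 0.54 at 50% (exact permutation p = 0.143). At 15%, where *Slc4a1* was at 0 in every control pool, the control ratios were set by the 0.5 UMIs added to each count, and no comparison is drawn.

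IC cells were 1.40% ± 0.304 of kept control cells (SD, n = 5), 2.0% ± 0.815 of UIR and 1.36% ± 0.166 of UUO cells (n = 3 each), and neither model differed from controls (exact permutation p = 0.25 and 1). Of gated tubular cells outside PT they were 11.6% ± 1.47, 12.5% ± 1.54 and 15% ± 4.45 (exact permutation p = 0.429 and 0.179). Their share of all gated tubular cells was 1.98% ± 0.400, 7.27% ± 1.46 and 12.8% ± 2.50 (exact permutation p = 0.0357 for each model, the smallest possible), where PT cells fell from 1102 to 1321 per control library to 456 to 962 in UIR and 42 to 82 in UUO.

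Outside IC, 13 of 32 tested pairs of member and segment were called in UIR, 9 lower and 4 higher, and 13 of 28 in UUO, 12 lower and 1 higher. Of all pairs of gene and segment outside IC, 10.4% were lower and 12% higher in UIR, and 11.9% and 13.5% in UUO. At a mitochondrial limit of 15%, 4 pairs were lower in UUO, against 4.78% of all. Without cells carrying an IC marker, 6 were lower and 2 higher in UIR, against 9.94% and 11.4%. Too low to test were *Foxi1*, *Slc4a1*, *Insrr* and *Atp4a* in PT, *Foxi1*, *Slc4a1*, *Slc26a4* and *Insrr* in LOH, *Insrr* in CNT, *Slc4a1*, *Insrr* and *Atp6v0d2* in PC, and 6 members in DCT, where only *Atp6v1g3*, *Atp6v0a4*, *Atp6v1b1* and *Atp4a* were tested. UUO had no DCT pools, and 2 of its 3 libraries had CNT pools.

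**Figure D4:**
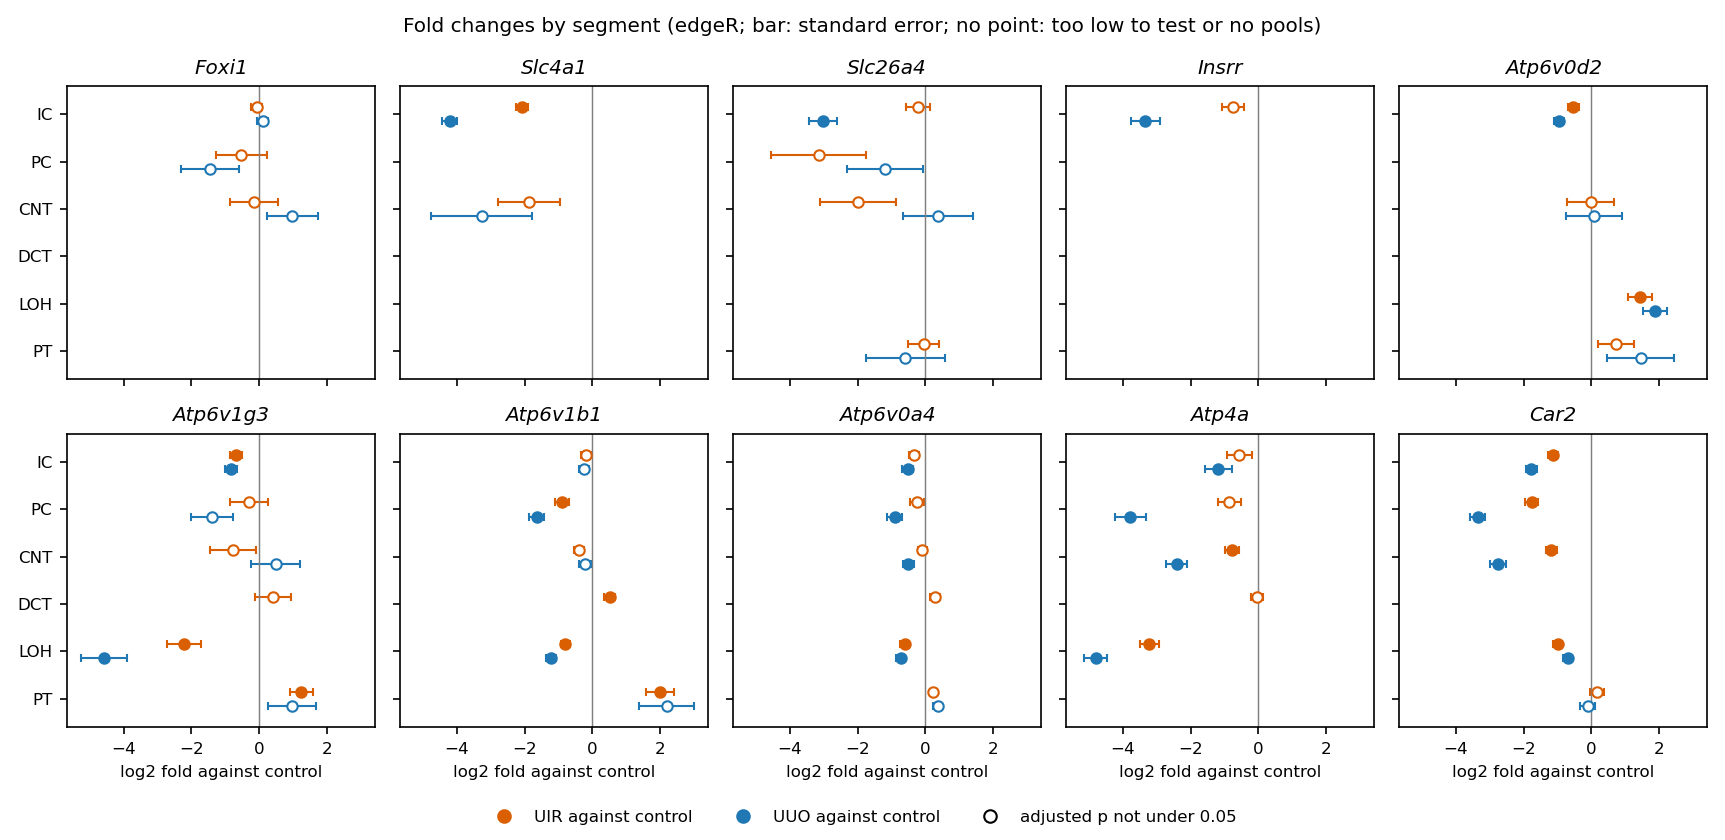
Log2 fold changes with SE of each gene in each segment, UIR and UUO against control, with filled points for an adjusted p under 0.05 (edgeR). *Car2* is lower in IC, PC, CNT and LOH of both models, and *Atp6v0d2* is lower in IC but higher in LOH.

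*Car2* was lower in PC by a wider margin than in IC. PC pools held 1533, 1433, 1565, 1609 and 1542 CPM in controls, 432, 556 and 447 after UIR, and 164, 102 and 223 after UUO. The 3 groups did not overlap. The log2 fold change was -1.76 (adjusted p = 1.43e-06, edgeR) in UIR and -3.36 (adjusted p = 1.93e-10) in UUO, with UUO below UIR by -1.60 (adjusted p = 7.05e-05), where 7.24%, 15.7% and 2.53% of all 9088 genes were lower. Whether the *Car2* differences of PC and IC differ from each other was not tested. With every PC cell that carried an IC marker left out, *Car2* was still lower, by -1.79 and -4.03.

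In CNT pools *Car2* was at 254, 350, 235, 276 and 304 CPM in controls, 152, 167 and 139 in UIR, and 48.7 and 67.4 in UUO1 and UUO2, again without overlap (-1.18 and -2.75, UUO against UIR -1.57). Of all 7751 genes in CNT, 11.3%, 15% and 1.68% were lower. The UIR call was lost when cells with an IC marker were left out (-0.36). In LOH *Car2* was at 225 to 264 CPM in controls, 133 to 165 after UIR and 165 to 192 after UUO (-1.0 and -0.70), below the controls in every injured library.

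*Atp6v1b1* was lower in PC in both models, at 308, 187, 224, 262 and 207 CPM in controls, 156, 141 and 116 in UIR, and 76.3, 57.0 and 125 in UUO. Neither model overlapped the controls. The log2 fold changes were -0.89 (adjusted p = 0.00428, edgeR) and -1.64 (adjusted p = 4.51e-06), and the UIR call was lost without cells carrying an IC marker (-0.39). In LOH it fell from 125 to 166 CPM to 91.9 to 114 in UIR and 70.0 to 80.5 in UUO (-0.80 and -1.22), where 14.6% and 16.5% of all 11143 genes were lower. In DCT it was higher in UIR, at 218, 174 and 203 CPM against 85.2 to 167 in controls (0.51, adjusted p = 0.0151), as were 15.5% of all 7537 genes, and the call was lost without cells carrying an IC marker (0.40, adjusted p = 0.104) and without Ctrl, N2 or UIR.

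*Atp4a* fell furthest in LOH, where it was at 154, 62.5, 70.3, 98.2 and 40.9 CPM in controls, 11, 14.5 and 9.24 after UIR, and 2.37, 5.19 and 3.87 after UUO. The 3 groups were separate. The log2 fold change was -3.22 (adjusted p = 1.50e-09, edgeR) in UIR and -4.80 (adjusted p = 4.15e-11) in UUO. In CNT it was at 73.3 to 181 CPM in controls, 70.2 to 122 in UIR, and 22.1 and 47.9 in UUO1 and UUO2 (-0.77 and -2.41). The UIR groups overlapped there, and that value was 0.28 at a mitochondrial limit of 15% and 0.066 with clusters in place of gates, neither called. In PC it was called in UUO only (-3.78), from 46.6 to 167 CPM in controls to 4.16, 4.75 and 17.0.

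*Atp6v0d2* rose in LOH, from 1.77, 9.62, 10.8, 5.61 and 10.9 CPM in controls to 19.8, 26.6 and 20.7 in UIR and 25.6, 32.4 and 33.2 in UUO, every injured library above every control. The log2 fold change was 1.43 (adjusted p = 0.00365, edgeR) in UIR and 1.86 (adjusted p = 0.000181) in UUO, where 17.3% and 19.4% of all genes were higher. These levels were near those of the libraries' empty droplets, at 7.41 to 41.7 CPM in controls, 19.2 to 29.8 after UIR and 22.4 to 28 after UUO. The part of free RNA in this difference was not tested beyond the subtraction among the alternatives, after which both calls were kept. Each call was lost in some other alternative.

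*Atp6v1g3* in LOH was lower by -2.22 in UIR (adjusted p = 0.00144, edgeR) and by -4.58 in UUO (adjusted p = 6.69e-06), but its highest control, AN2 at 130.8 CPM, stood apart from the others at 4.81 to 19.6. Without AN2 the UIR value was -0.72 (adjusted p = 0.195) and the UUO value -3.09 (adjusted p = 6.78e-05). *Atp6v0a4* was lower in LOH of both models (-0.62 and -0.73), at 204 to 264 CPM in controls, 159 to 185 after UIR and 157 to 162 after UUO. In UUO it was also lower in PC (-0.90) and CNT (-0.50), where the groups overlapped. The PC call was lost without cells carrying an IC marker (-0.73, adjusted p = 0.0600, edgeR). The CNT call was lost without N1, UUO1 or UUO2, and the value was 0.0099 with library-size scaling and 1.16 at a mitochondrial limit of 15%, neither called. In PT, *Atp6v1g3* and *Atp6v1b1* were called higher in UIR (1.24 and 2.01), as were 8.12% of all 11710 genes, at CPM below those of empty droplets, and the *Atp6v1g3* call was lost without cells carrying an IC marker (0.71, adjusted p = 0.248, edgeR).

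**Figure D5:**
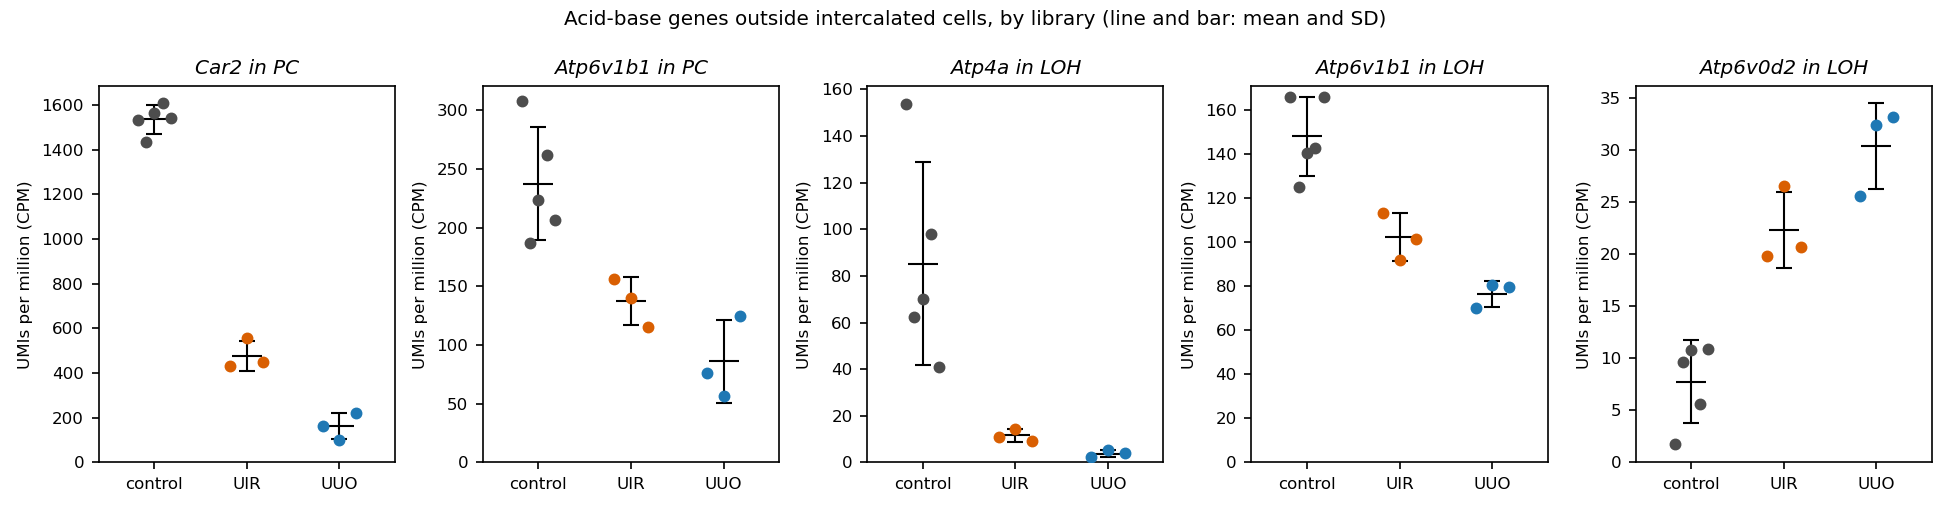
CPM per library of *Car2* and *Atp6v1b1* in PC and of *Atp4a*, *Atp6v1b1* and *Atp6v0d2* in LOH, with the mean and SD of control, UIR and UUO. *Car2* and *Atp4a* fall stepwise without overlap, and *Atp6v0d2* lies above the controls in every UIR and UUO library.

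In all kept cells summed per library, *Slc4a1* was at 18.8 to 34.9 CPM in controls, 11.9 to 16.6 after UIR and 2.48 to 4.60 after UUO (-1.25 and -3.38), and *Car2* at 394 to 442, 208 to 273 and 126 to 140 (-1.16 and -2.09). All 3 groups were separate for both genes. *Foxi1* (0.83) and *Atp6v1b1* (0.47) were higher in UIR, while *Atp6v0a4* was lower (-0.24), but higher with a mitochondrial limit of 15% (0.66) and not called with library-size scaling (0.15). In UUO 6 members were lower, *Atp4a* (-2.73), *Slc26a4* (-2.15), *Insrr* (-2.06) and *Atp6v0a4* (-1.03) besides these. Of all 16294 genes, 28.7% were lower and 33.2% higher in UIR, and 33% were lower in UUO. Library-size scaling, which moved the median of all genes to 0.44 in UIR and 0.54 in UUO, gave 5 members higher and 2 lower in UIR, against 55.9% and 16% of all genes. Without UIR1, 3 members were called in UIR.

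This sum too depended on which barcodes were kept. With a mitochondrial limit of 15%, *Slc4a1* was higher in both models than in controls (2.48, adjusted p = 3.65e-05, edgeR, and 1.04, adjusted p = 0.0202). With all barcodes of each library summed and no limit on mitochondrial or hemoglobin UMIs, it was lower in both (-1.22, adjusted p = 0.00117, and -2.93, adjusted p = 1.35e-06, edgeR). The part of hemoglobin-rich barcodes in this sum was not tested. In that sum *Slc26a4* and *Insrr* were lower in UIR as well (-0.73, adjusted p = 0.0161, and -0.76, adjusted p = 0.0372), and in UUO by -3.14 and -3.00.

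Of the other genes of the same machinery, 17 of 21 V-ATPase subunit genes that are not members were tested in IC. In UIR 6 were lower and 0 higher, in UUO 7 and 0, and between the models 1 was lower in UUO. Of all genes in IC, 7.12% were lower and 5.68% higher in UIR, and 12% and 10.5% in UUO. The list had medians of -0.45, -0.46 and -0.18 against 0.03, 0.04 and 0.00 over all genes. *Atp6v1c2*, the C2 subunit, fell from 828 CPM ± 82.7 (SD, n = 5) to 560 ± 62.4 in UIR and 301 ± 46.5 in UUO (n = 3 each, -0.81 and -1.84, UUO against UIR -1.03). *Atp6v1h* (-0.84 and -1.18), *Atp6v1a* (-0.68 and -0.94) and *Atp6v1d* (-0.61 and -0.95), subunits of the cytosolic domain, also fell in both. The ubiquitous paralogs of the members, *Atp6v1b2*, *Atp6v0d1*, *Atp6v1g1* and *Atp6v0a1*, were not called, with log2 fold changes from -0.47 to 0.18.

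Of 57 other acid-base genes, 34 were tested, of which 2 were higher and 6 lower in UIR and 2 higher and 8 lower in UUO, beside the same shares of all genes, with medians of -0.06 and 0.00. *Clcn5*, an endosomal chloride/proton exchanger gene, rose from 251 CPM ± 48.5 (n = 5) to 1605 in UIR and 1669 in UUO (2.43 and 2.36), and *Edn1* (endothelin) from 0.954 to 13.3 and 42.9 CPM (2.96 and 4.46, UUO against UIR 1.49). *Slc26a7*, a basolateral anion exchanger gene of type A cells, fell by -2.64 and -5.26 on the log2 scale. Its controls were uneven, at 126, 9.94, 0, 125 and 122 CPM in Ctrl, N1, N2, AN1 and AN2, so that UIR (11 to 22.1) and UUO (0 to 3.55) overlapped them. *Slc4a4* (bicarbonate cotransporter) was lower in both (-1.66 and -2.64, UIR overlapping the controls) and *Pck1* (phosphoenolpyruvate carboxykinase) in UUO (-4.18). The last pair are also genes of the proximal tubule, whose summed markers in IC pools moved the same way, as given above.

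Over the 30 control pools of 6 segments, the genes most like the members' mean level were *Pgrmc1* (Pearson r = 0.963), *Atp6v1a* (0.952), *Foxp1* (0.939), *Slc4a9* (0.935, a gating marker) and *Atp6ap1* (0.933). The pools share libraries and depth, and these values are a description. Among the members themselves r ran from 0.966 for *Atp6v1g3* to 0.229 for *Atp4a*. In IC of UUO, *Pgrmc1* was lower than in controls (-0.59, adjusted p = 0.00749, edgeR), whereas *Foxp1*, *Slc4a9* and *Atp6ap1* were not called in either model.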

How the data were processed

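The authors deposited, for each library, raw UMI counts of every gene in all barcodes, made with Cell Ranger (version 3.1.0 per the labels, although the study's methods name another version) on mm10. These counts carry neither normalization nor the ambient RNA and doublet removal of the study. Here, cells were called against each library's empty droplets (at least 500 UMIs, FDR 0.01, 10000 simulations), barcodes of over 30% mitochondrial or 5% hemoglobin UMIs and those of fewer than 200 genes were dropped, and the 7.5% most doublet-like were removed (scanpy 1.11.5, Python 3.11.15). Cells were gated by fixed segment markers. Of 13 IC markers, 9 were used, the others being shared with another gate, tubular or other. The gating rule was refined after marker tables had been seen, and the members and lists were chosen with earlier results of these data known.

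UMIs were summed per library and segment in pools of at least 20 cells and tested with edgeR 4.0.16 (quasi-likelihood, TMM, its filter on low counts, the 3 groups in 1 model, R 4.3.3), after a test on simulated data. Segments were compared with library as a block. Shares and ratios were compared by exact permutation tests over libraries (scipy 1.17.1), in which the smallest p is 0.0357 for 5 against 3 and 0.1 for 3 against 3. All 10 members are named in every segment, together with paralogs, up to 4 called genes per direction from each pathway list, and the 5 genes most like the members. Some genes that this rule names are not reported here. Alternatives covered scaling, filters, DESeq2 1.42.0, limits on cells, stricter or cluster-based gates, free RNA subtraction, the replicate block and libraries left out. The planned share of cells by type B markers was not used, because *Slc4a9* and *Oxgr1* were detected in 76.7% and 74.7% of the IC cells that set the gate, and the share by type A markers took its place after the data had been seen. Libraries of different groups that share a title number, or have none, were not treated as paired. The correlation of deviations was over 0.1 in 2 of these 13 pairs. It averaged 0.067 (highest 0.42), against -0.032 in other pairs, which does not exclude pairing. The methods describe libraries as separate mice, and replicates differed by more than sampling noise. Of the kept cells' barcodes, 214 occurred in more than 1 library.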

Additional observations from a re-analysis of the deposited data

Results flagged for a closer look

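In 57 groups of 5 control pools or shares, 10 had a library far from the others by Dixon's criterion, where chance gives about 1 in 20. Among them, *Atp6v1g3* was high in IC of N1 (9953 CPM, others 6362 to 7240), in LOH of AN2 (130.8 CPM, others 4.81 to 19.6) and in DCT of AN1 (97.4 CPM, others 0 to 9.46). CNT of N1 was high for 4 members, *Foxi1* (57.0 CPM, others at most 4.81), *Slc26a4* (44.8, others at most 2.32), *Atp6v0d2* (42.8, others at most 12.0) and *Atp6v1g3* (275.0, others 8.65 to 57.5). *Slc26a4* was high in PC of Ctrl (47.8 CPM, others at most 12.8), *Atp4a* in IC of AN1 (98.1 CPM, others 16.3 to 39.6), and the IC share of kept cells in AN2 (1.93%).

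Some members were called in opposite directions in different segments. The pairs of segments were chosen for these calls. The difference between segments of the injured minus control change in log2(CPM + 1), over 3 injured and 5 control libraries, is therefore a description. No p-value is drawn from it. For *Atp6v0d2*, this difference of LOH against IC was 1.86 in UIR and 2.61 in UUO. For *Atp6v1g3* in UIR it was 2.13 for PT against LOH and 1.67 for PT against IC. For *Atp6v1b1* in UIR it was 1.97 for PT against LOH, 2.22 for PT against PC, 1.35 for DCT against LOH and 1.59 for DCT against PC. In PT, *Atp6v1g3* averaged 6.52 CPM in controls and 16.1 in UIR, below the 124 and 166 CPM of empty droplets, and *Atp6v1b1* 1.02 and 4.43, below 18.5 and 33.0. The *Atp6v1g3* call in PT was lost without cells carrying an IC marker, as was that of *Atp6v1b1* in DCT. The *Atp6v0d2* levels in LOH lay near those of empty droplets.

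Outside the tubule, *Atp6v0d2* was counted in macrophage pools, at 12.9 CPM in UIR (164 UMIs in 3240 cells) and 18.8 CPM in UUO (348 UMIs in 4058 cells). In the 366 control macrophages it had 0 of 1294031 UMIs, which allows up to 2.32 CPM for counting error only. Empty droplets held 19.2 to 29.8 CPM in UIR and 22.4 to 28 in UUO, while endothelial pools held 2.32 and 1.06 CPM and T and NK pools 1.34 and 1.47, and the part of free RNA in the macrophage values was not tested. The d2 subunit is also known from osteoclasts and other macrophage lineage cells.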

How the results depend on the processing

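Of 64 calls of a member in a segment and contrast, 24 were kept in every alternative that could be fitted for them. The other 40 were lost in at least 1, of which 7 were reversed, that is, changed sign, in at least 1. The 24 include *Slc4a1* in IC of UIR and of UUO against control. These contrasts could not be fitted at 15%, where all control IC pools held 0 *Slc4a1* UMIs. In UIR, the 4 members called in IC became 2 with library-size scaling, 8 at a mitochondrial limit of 50%, 2 with the stricter gate, 2 in cells with 2 or more type A markers and 1 in those with 0 or 1. In UUO the 8 became 2 in cells with 0 or 1 such markers, and between the models the 3 became 5 at 50%, 1 and 0. In the other segments, 13 calls in UIR became 21 with no filter on low counts and 8 without cells carrying an IC marker, 13 in UUO became 4 at 15%, and 5 between the models became 13 with no filter and 8 with the replicate block. In all cells the 5 of UIR became 8 at 15%. The IC share outside PT was called with clusters in UIR (3.62 points, exact permutation p = 0.0357) and with the stricter gate in UUO (7.72, p = 0.0357, permutation). The type A share in UIR lost its call with clusters (20.3 points) and at 5000 UMIs (16.7). The exchanger balance was 0.54 in UIR at 50%. At 15% it was -1.24 in UIR and -4.11 in UUO, values set by the 0.5 UMIs added to each count, since all control pools held 0 *Slc4a1* UMIs. Reversed were *Atp4a* in CNT of UIR (0.28 at 15%, 0.066 with clusters), *Atp6v0a4* in CNT of UUO (0.0099 with library-size scaling, 1.16 at 15%), *Atp6v0a4* and *Slc26a4* in IC of UUO with 0 or 1 type A markers (0.20 and 0.026), and, in all cells, *Atp6v0a4* in UIR (0.15 with library-size scaling, 0.66 at 15%) and *Slc4a1* (2.48 in UIR and 1.04 in UUO at 15%). Of the reversed values, only those at 15% in all cells, of *Atp6v0a4* in UIR and *Slc4a1* in both models, were called in the new direction. The cause was not tested.

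With each library left out in turn, called members in IC numbered 2 to 4, 6 to 8 and 3 to 4 (UIR, UUO, between the models), in the other segments 11 to 14, 13 to 15 and 4 to 7, and in all cells 3 to 6, 6 to 7 and 6 to 9. The count of 2 in IC came without UIR2, and the 3 in all cells without UIR1. Pairs higher in IC numbered 46, 47 and 35 to 38. The IC share differed by 0.127 to 0.841, -0.118 to 0.0945 and -0.878 to -0.165 points of kept cells, 4.52 to 5.97, 9.43 to 11.8 and 4.13 to 6.48 of tubular cells, and 0.0542 to 1.51, 0.904 to 5.01 and -0.0365 to 4.07 outside PT. The type A share differed by 20.5 to 28.2, 52.8 to 59.4 and 29.0 to 35.1, and the balance by 1.54 to 2.84, 0.79 to 2.09 and -0.97 to -0.46. With 4 against 3 libraries an exact permutation p cannot fall below 0.0571. The replicate block lost none of the 64 calls and gave 4, 8 and 3 in IC, 13, 14 and 8 elsewhere and 5, 6 and 7 in all cells. Control IC pools of 183500 to 429140 UMIs from 23 to 38 cells, and smaller pools in the division by type A markers, limit the precision, and control IC at a limit of 15% could not be fitted.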
